A study of Rattus norvegicus with 8 samples.

Results

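Heat shock proteins are chaperones that keep other proteins folded, and their transcripts also rise when tissue is handled or taken apart. The set described here has 10 genes, Hspa1a, Hspa8, Hsp90aa1, Hsp90ab1, Hsph1, Dnajb1, Hspb1, Cryab, Hspd1 and Hspe1. A probe set, the group of short probes that reads 1 transcript on an Affymetrix array, was taken as a member when the platform annotation gave it exactly 1 symbol and that symbol was on the list. This gave 8 of the 10 genes, out of 14218 named genes on the array, read by 11 of its 31099 probe sets, and all 11 passed the filter on dim probe sets. Hsp90ab1, Hsph1 and Dnajb1 had 2 probe sets each and the other 5 genes had 1. Hspa8 and Hsp90aa1 were read only by probe sets annotated to several symbols, which are given separately below.

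RNA came from the ventral prostate of male Sprague-Dawley rats of generation 3, in 4 groups of 2 arrays. The groups were epithelium cells of vinclozolin lineage males and of control lineage males at 45 days of age, and whole ventral prostate of vinclozolin lineage males and of control lineage males at 180 days. Vinclozolin is a fungicide whose breakdown products block the androgen receptor. Lineage means that a pregnant ancestor was injected intraperitoneally on gestation days 8 to 14, and the rats measured were not themselves injected. The treatment text of all 8 samples names only the vehicle, DMSO, so the lineages rest on the sample titles. Each epithelium sample pooled 11 animals and each whole prostate sample pooled several. The labels do not say how the epithelium cells were separated, nor whether different animals went into both samples of a group. P-values therefore rest on the spread between arrays of the same group, some or all of which may be technical.

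Cytosolic chaperones work as a relay. HSP70 proteins (Hspa1a is the stress-induced one, Hspa8 the constitutive one) bind unfolded stretches, J-domain proteins such as Dnajb1 deliver clients to them, and HSP110 (Hsph1) exchanges their nucleotide. HSP90 (Hsp90aa1 and Hsp90ab1) takes over clients that include the androgen receptor and holds it ready to bind hormone, small heat shock proteins (Hspb1 and Cryab) keep unfolding proteins from clumping, and HSP60 with HSP10 (Hspd1 and Hspe1) folds proteins inside mitochondria. The transcription factor HSF1 switches many of these genes on under stress by binding heat shock elements, inverted repeats of the letters GAA.

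The upstream sequences of 5 of the genes are shown because these genes span the range of differences reported below, with Hspa1a at the top and Hspe1 near the bottom. They are the 250 bases before the annotated gene start in RefSeq (build GRCr8), read along the strand of the gene. Capitals mark a 2-unit heat shock element, GAANNTTC or TTCNNGAA, where N is any base. Each motif is its own reverse complement, so a match holds on both strands, and matches may overlap.
Hspa1a, chr20:3859506-3859755, plus strand: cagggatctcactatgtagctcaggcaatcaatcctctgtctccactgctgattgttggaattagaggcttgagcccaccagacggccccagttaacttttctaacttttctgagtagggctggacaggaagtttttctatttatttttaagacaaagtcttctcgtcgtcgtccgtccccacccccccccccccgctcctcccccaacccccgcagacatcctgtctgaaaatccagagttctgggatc
Dnajb1, chr19:41431142-41431391, minus strand: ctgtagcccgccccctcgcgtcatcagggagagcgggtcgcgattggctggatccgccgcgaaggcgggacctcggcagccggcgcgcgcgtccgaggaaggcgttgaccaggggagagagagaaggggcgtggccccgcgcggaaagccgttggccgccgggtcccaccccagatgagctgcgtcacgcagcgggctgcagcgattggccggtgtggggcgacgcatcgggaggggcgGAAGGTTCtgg
Hsph1, chr12:10427118-10427367, plus strand: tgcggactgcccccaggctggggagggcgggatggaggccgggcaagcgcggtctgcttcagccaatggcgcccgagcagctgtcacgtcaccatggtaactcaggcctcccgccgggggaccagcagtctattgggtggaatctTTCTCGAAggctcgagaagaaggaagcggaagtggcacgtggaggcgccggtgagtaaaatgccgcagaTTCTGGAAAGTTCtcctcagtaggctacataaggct
Hspb1, chr12:26432302-26432551, minus strand: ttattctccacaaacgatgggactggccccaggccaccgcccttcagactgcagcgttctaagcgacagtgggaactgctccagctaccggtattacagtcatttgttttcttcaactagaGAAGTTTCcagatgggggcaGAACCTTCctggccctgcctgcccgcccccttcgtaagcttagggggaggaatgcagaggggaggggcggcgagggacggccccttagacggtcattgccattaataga
Hspe1, chr9:64084077-64084326, plus strand: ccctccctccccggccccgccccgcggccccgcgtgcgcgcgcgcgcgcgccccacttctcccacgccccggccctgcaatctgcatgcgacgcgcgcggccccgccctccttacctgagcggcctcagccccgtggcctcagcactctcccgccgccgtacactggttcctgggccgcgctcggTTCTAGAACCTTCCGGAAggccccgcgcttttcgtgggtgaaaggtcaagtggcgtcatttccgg

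Of the 10 genes, 8 were in the promoter table, and Cryab and Hsp90aa1 were not. A 2-unit element was found in 6 of these 8 windows, against 13.5% of all 33469 windows of this length. A 3-unit element, TTCNNGAANNTTC or GAANNTTCNNGAA, was found in 4 of the 8, against 0.663% of all windows. Hsph1 had a 3-unit element that began 36 bases before the start, and Hspe1 had overlapping ones that began 65 and 60 bases before it. Hspd1 and Hspe1 lie head to head on opposite strands, and their windows share 211 bases, so the elements of this pair are the same letters. Hspa8 had 3-unit elements beginning 213 and 55 bases before its start. Dnajb1 had a single 2-unit element 11 bases before the start, and Hspb1 had 2-unit elements 129 and 109 bases before it. The windows of Hspa1a and Hsp90ab1 held neither motif. A match of letters is a description and not a binding site, and no match says only that these letters are not in this window.

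**Figure D1:**
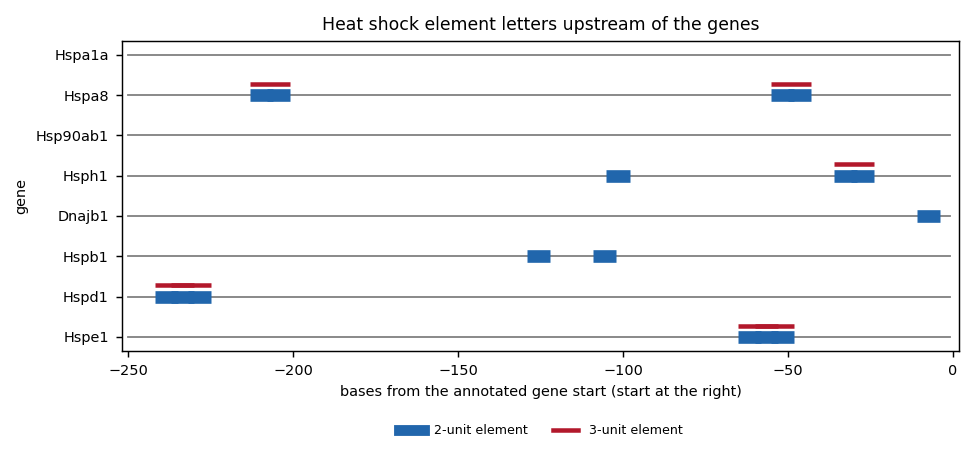
Heat shock element letters in the 250 bases before the annotated start of 8 genes, with the distance from the start in bases on the horizontal axis and 1 line per gene. Blue blocks are 2-unit and red bars 3-unit elements. Hspa8, Hsph1, Hspd1 and Hspe1 carry 3-unit elements, and the lines of Hspa1a and Hsp90ab1 are empty.

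The authors' values were intensities on a linear scale that had been put on a common trimmed mean of 125.05 units on every array. The 3' to 5' ratio of the actin control probe sets, a measure of RNA integrity, was 2.26 to 2.57 on the epithelium arrays and 3.14 to 3.98 on the whole prostate arrays. The luminal marker list checks the label of the tissue, and its summed intensity was 30583.9 to 31606.1 on the epithelium arrays, against 27266.5 to 30297 on the whole prostate arrays. Some markers of other cell types had clear signal in the epithelium samples, such as those of smooth muscle below. No listed marker was at 0, but this does not show presence. The adipocyte marker Cidec was at 0.9 to 3.5 units there, and the skeletal muscle marker Tnnt3 at 1.7 to 3.8. The summed intensity of 10 smooth muscle markers was 18358.2 to 18466 in vinclozolin epithelium and 19974.7 to 20242.6 in control epithelium, against 7558.4 to 7929.3 in vinclozolin whole prostate and 7312.3 to 7545.8 in control whole prostate. The smooth muscle markers were thus higher in the epithelium samples than in the whole gland, against what the label names, and epithelium is used below only as the name of these samples.

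The preparations differed far more than the lineages for Hspa1a, Dnajb1 and Hspb1, but not for every member. Hspd1 had a log2 difference of 0.07 between preparations. Between lineages, vinclozolin minus control, it was at -0.14 in whole prostate and -0.18 in epithelium. Hspa1a, Dnajb1, Hspb1 and Cryab were several times higher in 45-day epithelium than in 180-day whole prostate, with Hspa1a at 10.3-fold, Dnajb1 at 6.71-fold and 3.80-fold on its probe sets, Hspb1 at 5.62-fold and Cryab at 3.09-fold. Hsph1 was higher by 1.87-fold and 1.35-fold. Of the mitochondrial pair, Hspe1 differed little and Hspd1 was not called. Fitted with limma on log2(intensity + 16), with 4 arrays a side, 10 of the 11 probe sets were called at an adjusted p under 0.05, 9 higher and 1 lower in epithelium. Of all 21729 probe sets tested, 41.4% were called, 18.5% higher and 22.9% lower. The median log2 difference of the 11 was 0.90, against -0.06 over all probe sets tested. Called higher by at least 4-fold were 3 of the 11, those of Hspa1a and Hspb1 and 1 of Dnajb1, against 1.01% of all probe sets. Age and preparation changed together, and their parts in these differences cannot be told apart.

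**Figure D2:**
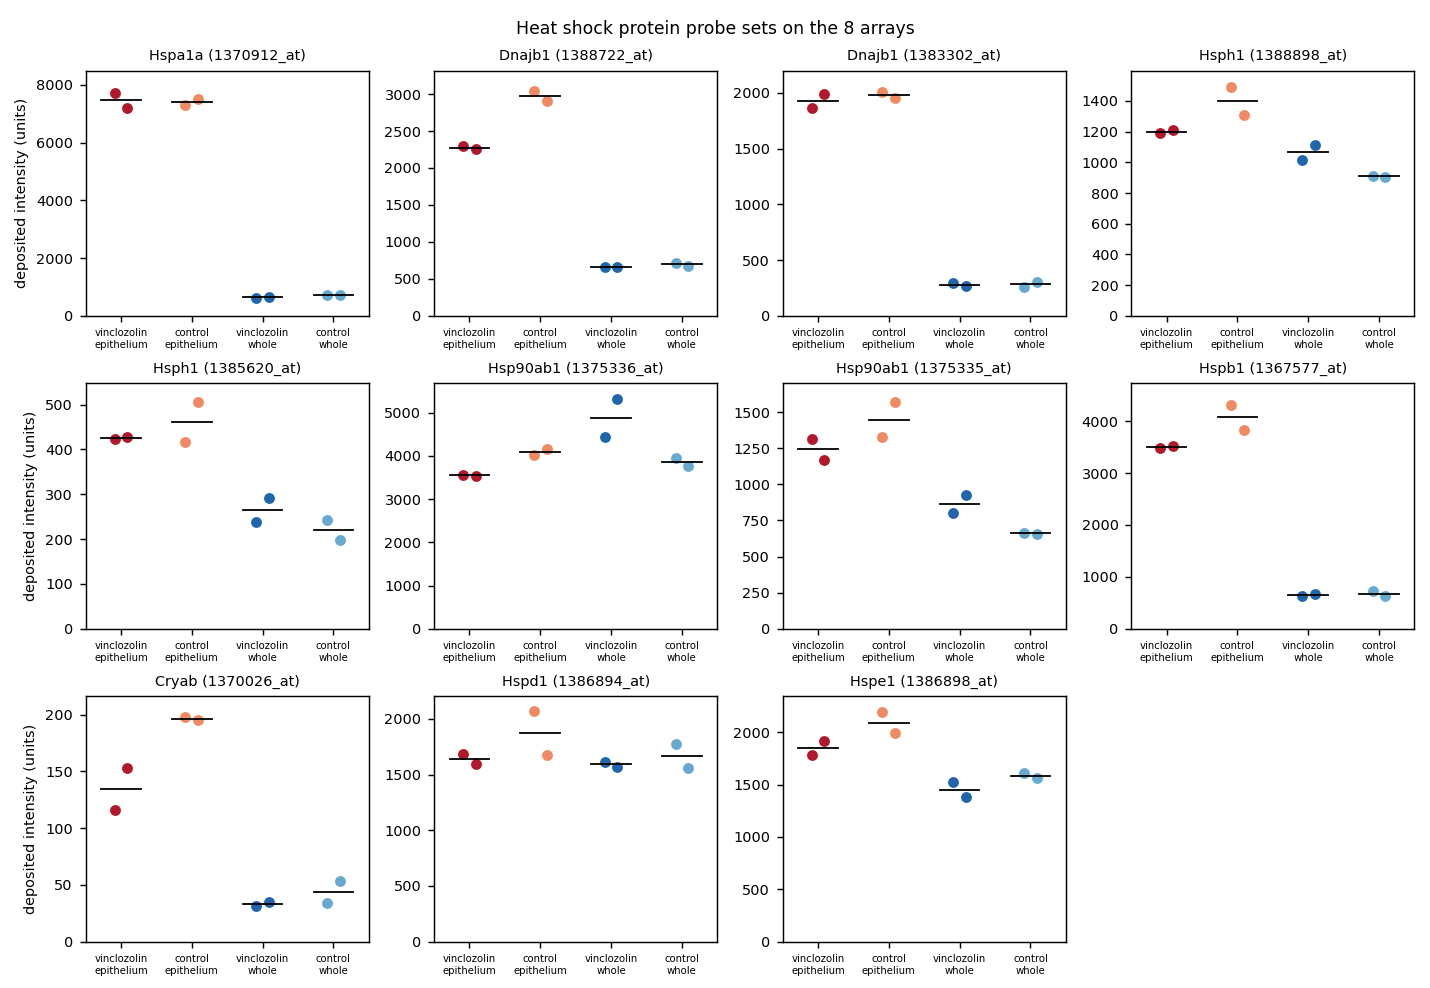
Deposited intensity, in linear units, of each of the 11 probe sets on the 8 arrays, with 1 panel per probe set. Points are arrays and bars the mean of the 2 arrays of a group, with the epithelium groups left of the whole prostate groups. Hspa1a, Dnajb1, Hspb1 and Cryab separate by preparation, and Hspd1 does not.

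Hspa1a, the inducible HSP70, had 7734.5 and 7211.1 intensity units in vinclozolin epithelium and 7296.7 and 7498.8 in control epithelium, against 630.3 and 667.1 in vinclozolin whole prostate and 717.9 and 724.4 in control whole prostate. All 4 epithelium arrays lay far above all 4 whole prostate arrays. Its log2 difference of 3.37 ± 0.07 (SE, n = 4 arrays a side, limma adjusted p = 2.98e-06) was the 32nd largest rise among the 21729 probe sets. Hspa1a is nearly identical in sequence to Hspa1b, so its probe set may read both genes. A further probe set annotated to both had 6213.1 and 6511.9 units in vinclozolin epithelium and 6210.9 and 7067.8 in control epithelium, against 1005.9 and 947.1 in vinclozolin whole prostate and 1237.9 and 1113.4 in control whole prostate. Its log2 difference was 2.52 ± 0.09, in the same direction.

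Dnajb1, the J-domain partner of inducible HSP70, had 1864.9 and 1987.8 units on probe set 1383302_at in vinclozolin epithelium and 2008.2 and 1957.4 in control epithelium, against 296 and 263.7 in vinclozolin whole prostate and 258.7 and 306.1 in control whole prostate. On probe set 1388722_at it had 2295.6 and 2255.1 units in vinclozolin epithelium and 3039.8 and 2908.8 in control epithelium, against 662 and 658.1 in vinclozolin whole prostate and 719.1 and 673.6 in control whole prostate. Both probe sets kept the preparations apart. The log2 differences were 2.75 ± 0.09 and 1.93 ± 0.08, with limma adjusted p of 9.15e-06 and 1.77e-05. Only the second of these Dnajb1 probe sets showed a gap between the lineages inside the epithelium, where the vinclozolin arrays lay lower.

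Hsph1, the HSP110 exchange factor, differed less. On probe set 1385620_at it had 422.8 and 427.6 units in vinclozolin epithelium and 416.3 and 505.6 in control epithelium, against 238.5 and 291.4 in vinclozolin whole prostate and 241.8 and 198.4 in control whole prostate. On probe set 1388898_at it had 1190.9 and 1209.2 units in vinclozolin epithelium and 1492.3 and 1311.6 in control epithelium, against 1013.1 and 1116.3 in vinclozolin whole prostate and 911.5 and 905.6 in control whole prostate. The epithelium arrays were above the whole prostate arrays on both. The log2 differences of Hsph1 were 0.90 ± 0.11 (adjusted p = 0.00135) and 0.43 ± 0.09 (adjusted p = 0.00814). With arrays centred on their medians in place of quantile normalisation, the smaller one was 0.17 and was not called (adjusted p = 0.128).

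Hsp90ab1, the constitutive HSP90, had probe sets that disagreed. On probe set 1375335_at it had 1312 and 1172.5 units in vinclozolin epithelium and 1325.5 and 1572.8 in control epithelium, against 801.6 and 925.1 in vinclozolin whole prostate and 666.3 and 659.5 in control whole prostate, with the preparations apart. On probe set 1375336_at it had 3560.6 and 3536.5 units in vinclozolin epithelium and 4029.9 and 4154.6 in control epithelium, against 4435.1 and 5315.8 in vinclozolin whole prostate and 3962 and 3762 in control whole prostate. These deposited values overlapped between the preparations, and they came apart only after quantile normalisation. In limma's fit the first probe set was called higher in epithelium, by 0.85 ± 0.09 (adjusted p = 0.000815), and the second was called lower, at -0.28 ± 0.09 (adjusted p = 0.0385). The lower call was lost on the deposited scale, where the difference was -0.18 (adjusted p = 0.141), and in 7 of the 8 fits that left out 1 array, so the direction of Hsp90ab1 between the preparations is not settled by these arrays.

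Hsp90aa1, the inducible HSP90, was read by 2 probe sets that also carry the symbol of a pseudogene, Hsp90aa1-ps17, so their signal cannot be assigned to 1 of them. Probe set 1388850_at had 2726.7 and 2611.7 units in vinclozolin epithelium and 2781.3 and 2785.6 in control epithelium, against 429.9 and 488.8 in vinclozolin whole prostate and 386.5 and 346.8 in control whole prostate. Probe set 1372701_at had 5276.7 and 5040.1 units in vinclozolin epithelium and 4865.7 and 5403.1 in control epithelium, against 3968.4 and 3603.1 in vinclozolin whole prostate and 3142.7 and 3263.4 in control whole prostate. Both were called higher in epithelium, by 2.71 ± 0.08 (adjusted p = 8.49e-06) and 0.45 ± 0.08 (adjusted p = 0.00632). The probe set annotated to Hspa8 and Haus8l2 had 6425.5 and 6034.1 units in vinclozolin epithelium and 6435.5 and 7491.9 in control epithelium, against 7413.3 and 7157.6 in vinclozolin whole prostate and 5590.3 and 6104.5 in control whole prostate. The preparations overlapped there, and the log2 difference of -0.17 ± 0.09 was not called (adjusted p = 0.177).

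Hspb1, a small heat shock protein that also binds the actin cytoskeleton, had 3482.4 and 3518.5 units in vinclozolin epithelium and 4315.8 and 3836.3 in control epithelium, against 626.2 and 671.1 in vinclozolin whole prostate and 719.7 and 626.1 in control whole prostate. Cryab, the small heat shock protein first known from the lens and abundant in muscle, had 116.4 and 153.4 units in vinclozolin epithelium and 197.6 and 195.5 in control epithelium, against 31.2 and 35.2 in vinclozolin whole prostate and 34.1 and 53.8 in control whole prostate. Both genes were higher on every epithelium array, by log2 2.49 ± 0.09 for Hspb1 (adjusted p = 1.15e-05) and 1.63 ± 0.13 for Cryab (adjusted p = 0.00024). The Cryab values in whole prostate were close enough to the added 16 units to understate its fold. Of the 10 smooth muscle markers, 9 were called higher and 1 lower in epithelium, with a median of 2.15, and their part in the differences of Hspb1 and Cryab was not tested.

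Hspd1, the mitochondrial HSP60, had 1682.1 and 1592.1 units in vinclozolin epithelium and 2072.8 and 1678.7 in control epithelium, against 1616.8 and 1570.1 in vinclozolin whole prostate and 1773.2 and 1562.9 in control whole prostate. The preparations overlapped. The log2 difference of Hspd1 was 0.07 ± 0.11, with a 95% interval of -0.19 to 0.32 (adjusted p = 0.66). Its partner Hspe1, the HSP10 that caps the folding chamber, had 1785.6 and 1915.9 units in vinclozolin epithelium and 2191.8 and 1995.9 in control epithelium, against 1524.3 and 1380.3 in vinclozolin whole prostate and 1612.1 and 1561.2 in control whole prostate. The epithelium arrays lay just above. Hspe1 was called higher at 0.35 ± 0.09 (adjusted p = 0.0182), but not with median centring, where it was 0.15 (adjusted p = 0.205), nor in 4 of the 8 fits that left out 1 array. Hspd1 and Hspe1 are transcribed from the shared stretch shown above, and they are among the smallest differences of the set.

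The preparation difference was also taken in each lineage, since the means of these contrasts share no array with each other. Both use the spread estimated from all 8 arrays, so their calls and intervals are not independent. Hspa1a differed by 3.48 in the vinclozolin lineage and 3.25 in the control lineage. Cryab differed by 1.50 in the vinclozolin lineage and 1.76 in the control lineage. Hspb1 differed by 2.42 in the vinclozolin lineage and 2.56 in the control lineage, and Dnajb1 on 1383302_at by 2.71 and 2.78. In the vinclozolin lineage 8 of the 11 probe sets were called, 7 higher and 1 lower, against 27.4% of all probe sets, 13.1% higher and 14.2% lower. In the control lineage 8 were called and all of them were higher, against 27.8% of all probe sets, 12.9% higher. Dnajb1 on 1388722_at differed by 1.76 in the vinclozolin lineage and 2.09 in the control lineage, and Hsph1 on 1385620_at by 0.72 and 1.09. Hspe1, at 0.36 and 0.33, and Hspd1, at 0.04 and 0.09, were called in neither, and Hsp90ab1 on 1375336_at was at -0.45 (called) in the vinclozolin lineage and -0.10 in the control lineage. The lineages parted most for Hsp90ab1 on 1375335_at, which differed by 0.57 in the vinclozolin lineage and 1.14 in the control lineage. Hsph1 on 1388898_at was called in the control lineage, at 0.63, and not in the vinclozolin lineage, at 0.23 (adjusted p = 0.207). Whether these differ is tested further below as the difference between the lineage effects.

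**Figure D3:**
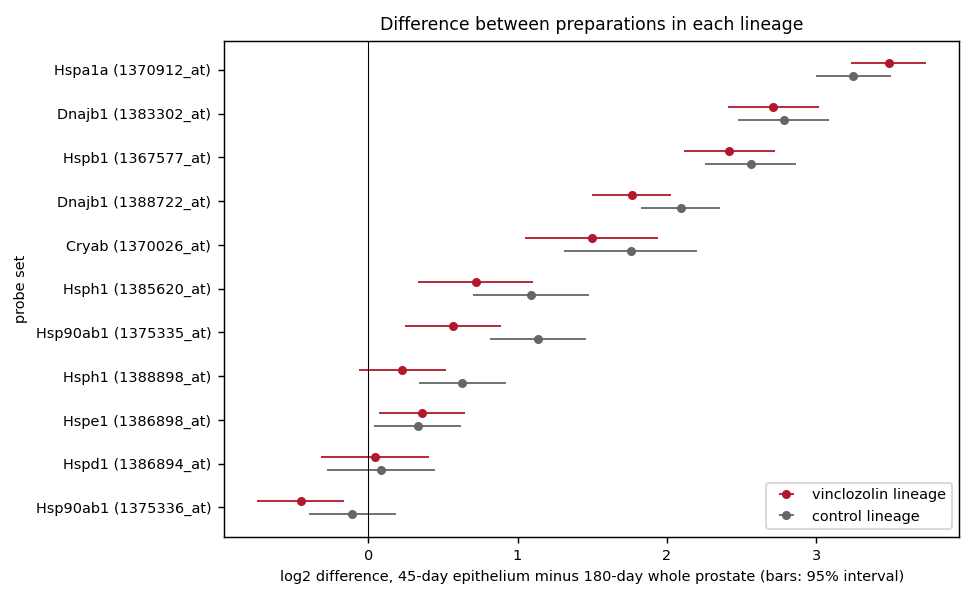
Log2 difference of each probe set, 45-day epithelium minus 180-day whole prostate, in the vinclozolin lineage and in the control lineage. Points are limma estimates from 2 arrays a side and bars their 95% intervals. Hspa1a is highest in both lineages, at 3.48 and 3.25, and Hspd1 is close to 0 in both.

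Chaperones outside the set were called in both directions, at shares to be read against the 18.5% of all probe sets called higher and the 22.9% called lower. Of 21 measured cochaperones of HSP70 and HSP90, 6 were called higher and 7 lower, with a median of -0.10. Bag3, which links HSP70 and small heat shock proteins to autophagy, was higher by 1.33 ± 0.09, and the HSP90 kinase adaptor Cdc37 by 0.83 ± 0.09. Ahsa1, which speeds the ATPase of HSP90, was lower at -0.67 ± 0.08, and the cyclophilin Ppid was lower at -0.80 ± 0.09. Of 22 other J-domain proteins, 4 were called higher and 6 lower, which is near the shares over all probe sets, with Dnaja4 highest at 1.21 ± 0.08 and Dnajc7, Dnajc5 and Dnaja1 at -1.16 ± 0.09, -1.01 ± 0.08 and -0.58 ± 0.07. Of 9 other HSP70 and HSP110 genes, 3 were higher and 4 lower. Hspa2, known for its role in male germ cells, was at 1.36 ± 0.18, and Hyou1, an HSP110 of the endoplasmic reticulum, at 0.75 ± 0.09. Hspa4, an HSP110 of the cytosol, was at -1.35 ± 0.10, and Hspa13 was at -0.58 ± 0.08.

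Of 5 other small heat shock proteins, 2 were higher and 0 lower. Hspb6, the small heat shock protein of smooth muscle, was higher by 1.31 ± 0.08 and Hspb9 by 1.12 ± 0.36, while Hspb7 (0.24 ± 0.11) and the brighter probe set of Hspb8 (0.13 ± 0.10) were not called. Hspb9 was dim, with normalised log2 means of 4.84 in whole prostate and 5.96 in epithelium. Its arrays overlapped between the preparations, and its call was near the threshold (limma adjusted p = 0.0471). Of 10 organelle chaperones, 4 were higher and 1 lower. The collagen chaperone Serpinh1 was higher by 1.70 ± 0.13, mitochondrial Hspa9 by 0.46 ± 0.09 and Hsp90b1 of the endoplasmic reticulum by 0.42 ± 0.10, and Clpx, a subunit of the mitochondrial ClpXP protease, was lower at -0.24 ± 0.08. Of the 8 subunits of TRiC, the cytosolic chaperonin for actin and tubulin, 0 were higher and 3 lower, namely Tcp1 at -0.50 ± 0.08, Cct4 at -0.43 ± 0.07 and Cct5 at -0.37 ± 0.09. Of 5 heat shock factors and regulators, 0 were higher and 2 lower. Hsf1 itself, at -0.22 ± 0.12 (adjusted p = 0.184), was not called, and Hsf2 was lower at -0.56 ± 0.09. Hsf2bp, named for binding HSF2, was at -1.98 ± 0.17. Further probe sets disagreed for Hspb8, whose other one was called at 1.14, for Hsf2, Cct5 and Dnajc5, which had others that were not called, and for Hspa9, which had 1 at -0.65 that was not called. Hyou1 had another at 1.68, and that of Dnajc7, at -0.96, was not called (adjusted p = 0.0688). Among 4 measured receptors held by HSP90, the mineralocorticoid receptor Nr3c2 was lower at -0.73 ± 0.08 and the glucocorticoid receptor Nr3c1, at 0.03 ± 0.13, was not called. These lists were compared by their counts and medians, and no test set one list against another.

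Immediate early genes code for transcription factors and signal regulators that cells switch on within minutes of stress or handling. Most of them were also higher in epithelium than in whole prostate. Of 28 measured, 27 were called higher in epithelium and 0 lower, with a median of 2.25. Fosb was 31.9-fold higher, and Egr1 was higher by log2 4.56 ± 0.08, Ier3 by 4.42 ± 0.07 and Fos by 3.73 ± 0.08. Cell type markers moved too, with 7 of 8 basal epithelium markers (median 1.66), 7 of 8 fibroblast markers (1.50) and 4 of 6 endothelium markers (1.33) higher and 0 lower, and with 5 of 5 adipocyte markers lower (-3.09). The summed intensity of the basal markers was 3946.7 to 4190.3 on the epithelium arrays, against 940.4 to 987.9 on the whole prostate arrays. That of the fibroblast markers was 9950.3 to 10852.8, against 2964 to 3215.2, and that of the adipocyte markers was 181.5 to 232.6, against 1969.7 to 2314.8. Of 8 luminal markers, 2 were higher and 2 lower. Of 13 skeletal muscle markers tested, 3 were higher and 6 lower, and the median differed by lineage, at 0.13 in the vinclozolin lineage and -1.77 in the control lineage. The summed intensity of the 15 on the array ran the other way from these counts, at 6976.7 to 8203.3 on the epithelium arrays, against 1676.1 to 3788.9 on the whole prostate arrays. Most of the epithelium sum was Acta1, at 3866.2 to 4820.4 units, and Myh1, at 2350.7 to 2720.1. Other markers were dim there, such as Myl1 at 11.2 to 25.4 units, against 28.5 to 377.9 in whole prostate. Of 8 macrophage markers 0 were higher and 7 lower. Their summed intensity was nonetheless higher in epithelium in each lineage, at 5767.1 to 5941.5 against 4046.8 to 4772.1 in the vinclozolin lineage. In the control lineage the sum was 7122.3 to 8618.5 against 6026 to 6497.3. Most of these sums was Lyz2 alone, at 5573.1 to 8432.2 units on the epithelium arrays and 3440.5 to 6134.1 on the whole prostate arrays. With both lineages together, Lyz2 was the only marker of the 8 with a positive difference. Of 5 lymphocyte markers 0 were higher and 2 lower. In bulk RNA, a different share of cells and a different amount of transcript per cell cannot be told apart. The part of handling, of cell makeup and of RNA integrity in the heat shock differences was not tested.

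**Figure D4:**
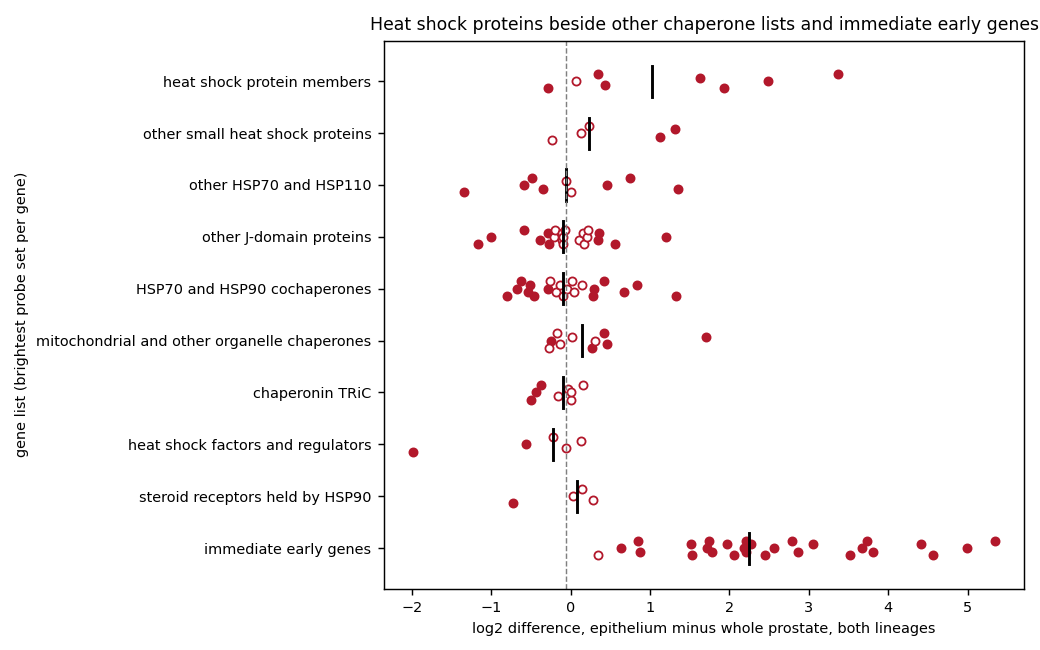
Log2 difference, epithelium minus whole prostate, for the genes of 10 lists, with the brightest probe set of each gene. Filled points were called, open points were not, black bars are list medians and the dashed line is the median of all probe sets tested, -0.06. The heat shock proteins and the immediate early genes lie to the right, with the immediate early genes furthest, and the other chaperone lists lie around the dashed line.

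The comparison the study was built for sets vinclozolin lineage against control lineage. In 180-day whole prostate, 0 of the 11 probe sets were called by limma, against 1.74% of all probe sets tested. At an unadjusted p under 0.05 there was 1, against 18.7% of all. The log2 differences, vinclozolin minus control, ran between -0.28 and 0.38, with 5 positive and 6 negative and a median of -0.04 (-0.01 over all probe sets). Hsp90ab1 on 1375335_at had the largest, at 0.38 ± 0.13 (SE, n = 2 arrays a group, unadjusted p = 0.0257, adjusted p = 0.202). It was called when limma's prior was allowed to follow intensity and resist outliers (adjusted p = 0.0176). The other Hsp90ab1 probe set was also positive, at 0.18 ± 0.12, as were those of Hsph1, at 0.22 ± 0.12 on 1388898_at and 0.27 ± 0.16 on 1385620_at.

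The other members did not pass the test in whole prostate either. Hspa1a was at -0.14 ± 0.10, with a 95% interval of -0.39 to 0.11. Hspb1 was at -0.04 ± 0.13 and Dnajb1 at -0.06 ± 0.11 and 0.02 ± 0.13. Cryab was at -0.28 ± 0.19, with the widest interval of the set, -0.73 to 0.16, and it lay between -0.49 and -0.08 with 1 array left out. The mitochondrial genes Hspd1 and Hspe1 were at -0.14 ± 0.15 and -0.20 ± 0.12. The arrays of the lineages did not overlap for 9 of the 11 probe sets, and this held for 53.9% of all probe sets.

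Genes of 3 of the other chaperone and immediate early lists were called between the lineages in whole prostate, where 1.74% of all probe sets were called. Of 28 immediate early genes 3 were called lower and 0 higher, namely Fos, which fell by 1.92 ± 0.12, Egr1 by 1.49 ± 0.12 and Fosb by 0.85 ± 0.10 in the vinclozolin lineage. Of 9 other HSP70 and HSP110 genes, Hyou1 was called higher at 0.75 ± 0.13 (adjusted p = 0.0467). Of 22 other J-domain proteins 2 were called higher, Dnajb6, at 0.69 ± 0.12 (adjusted p = 0.0473), and Dnajc10, which works in the endoplasmic reticulum, at 0.89 ± 0.15 (adjusted p = 0.0427). The other chaperone lists had 0 calls in this comparison. Of 13 skeletal muscle markers tested, 7 were called lower, with a median of -1.52. The summed intensity of the 15 on the array was 1676.1 to 1730.4 in vinclozolin whole prostate, against 3556.1 to 3788.9 in control whole prostate. Of 8 macrophage markers, 2 were called higher. Cryab, which muscle also expresses, was not called there, and the part of muscle in its value was not tested.

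In 45-day epithelium, 0 of the 11 probe sets were called, against 0.0092% of all probe sets, which is 2 of 21729. At an unadjusted p under 0.05 there were 2 of the 11, against 11.4% of all. Signs were uneven, with 10 of the 11 negative and Hspa1a alone positive, against 50.3% negative over all probe sets, and the median was -0.18 against 0.00. The 11 probe sets read only 8 genes, all on the same arrays, so their signs are not independent of each other. Cryab had the largest difference, at -0.54 ± 0.19 (SE, n = 2 arrays a group, unadjusted p = 0.0243, adjusted p = 0.367), and it lay between -0.74 and -0.35 with 1 array left out. Dnajb1 on 1388722_at was at -0.39 ± 0.11 (unadjusted p = 0.0108, adjusted p = 0.304), and it was called with the intensity-following prior (adjusted p = 0.0183). Its other probe set was at -0.05 ± 0.13 and did not share that gap.

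The remaining epithelium values were not called. Hspa1a was at 0.10 ± 0.10, with a 95% interval of -0.15 to 0.35, and turned to -0.02 with median centring. Hspb1 was at -0.19 ± 0.13, Hsp90ab1 at -0.17 ± 0.12 and -0.19 ± 0.13, and Hsph1 at -0.18 ± 0.12 and -0.10 ± 0.16. Hspd1 was at -0.18 ± 0.15 and Hspe1 at -0.17 ± 0.12. The arrays of the lineages did not overlap for 8 of the 11, 7 of them lower in vinclozolin, against 39.4% and 19.7% of all probe sets. Among related genes, Bag3 was at -0.62 ± 0.12 (unadjusted p = 0.00196, adjusted p = 0.232) and Dnaja4 at -0.35 ± 0.11 (adjusted p = 0.322). In the other chaperone lists 0 genes were called, and signs varied by list. Positive signs were held by 8 of 9 other HSP70 and HSP110 genes (median 0.22) and 3 of 5 other small heat shock proteins (0.03). The same held for 3 of 5 heat shock factors and regulators (0.13) and 10 of 21 cochaperones (-0.02). Fewer were positive among other J-domain proteins (9 of 22, -0.03), organelle chaperones (3 of 10, -0.06) and TRiC subunits (2 of 8, -0.04). Immediate early genes had 5 of 28 positive (-0.19).

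**Figure D5:**
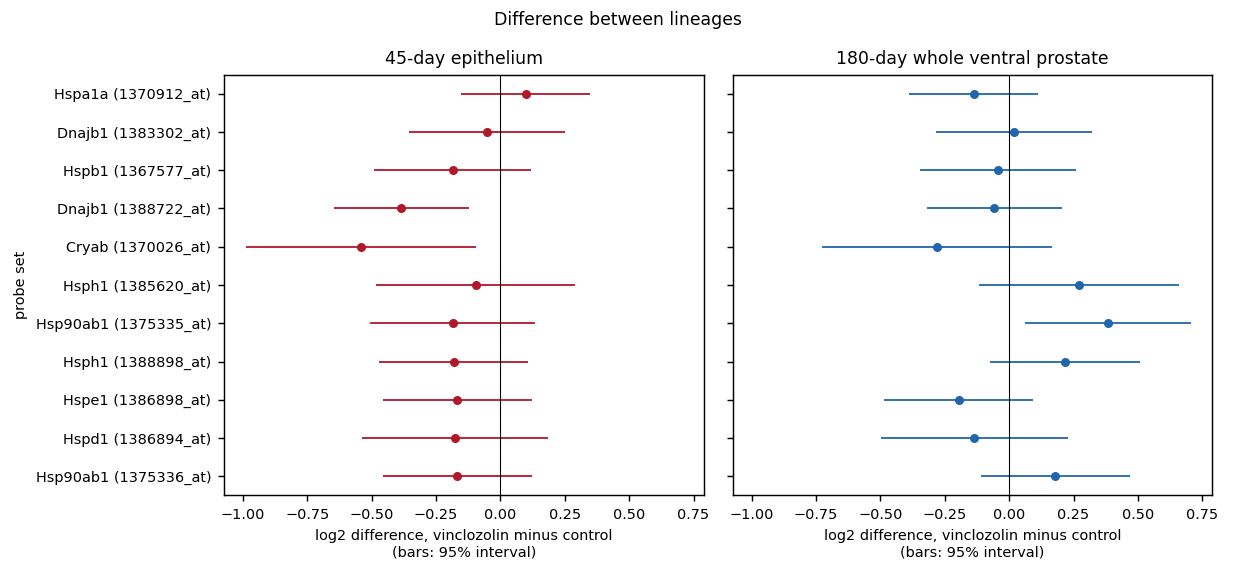
Log2 difference of each probe set, vinclozolin minus control, in 45-day epithelium and in 180-day whole ventral prostate. Points are limma estimates from 2 arrays a group and bars their 95% intervals. Most intervals cross 0. The exceptions, none called after adjustment, are Dnajb1 on 1388722_at and Cryab in epithelium and Hsp90ab1 on 1375335_at in whole prostate.

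The lineage effect in epithelium was set against that in whole prostate as an interaction. No member was called, 0 of 11 against 0.29% of all probe sets, and 1 had an unadjusted p under 0.05, against 13.5% of all. This was Hsp90ab1 on 1375335_at, with a difference of -0.57 ± 0.19 (unadjusted p = 0.0211, adjusted p = 0.289), which was called with the intensity-following prior (adjusted p = 0.033). The other probe set of Hsp90ab1 differed by -0.35 ± 0.17, those of Hsph1 by -0.40 ± 0.17 and -0.37 ± 0.23, and those of Dnajb1 by -0.33 ± 0.15 on 1388722_at and -0.07 ± 0.18 on 1383302_at. Hspa1a differed by 0.24 ± 0.15, Hspb1 by -0.14 ± 0.18 and Cryab by -0.26 ± 0.26. Hspd1 was at -0.04 ± 0.21 and Hspe1 at 0.03 ± 0.17. Fos (1.84 ± 0.17, adjusted p = 0.0163) and Egr1 (1.51 ± 0.16, adjusted p = 0.0275) were called for this interaction, and Bag3 (-0.81 ± 0.18, adjusted p = 0.158) was not.

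The genes whose pattern over the 8 arrays was most like that of Hspa1a were Egr2, Tpm3, Igfbp5, Nedd4 and Pcna, with Pearson correlations of 0.9991 to 0.9986 on the log2 scale. For Cryab they were Cebpd, Rab27b, Lmo4, Id2 and Bhlhe41, at 0.9933 to 0.9884. The 8 points fall into the 2 preparations, so the measure mainly ranks genes by how cleanly they split them. A correlation above 0.95 was reached by 5.17% of 15873 probe sets for Hspa1a and by 2.61% for Cryab.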

How the data were processed

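RNA of 8 pooled samples was hybridised to Affymetrix arrays. The authors deposited 1 linear intensity per probe set and array. The summarising software was not given in the sources used here. The arrays share the same trimmed mean, so the authors had scaled them. RNA was biotin labelled by the maker's procedure, per the labels' protocols.

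From the deposited intensities, log2(intensity + 16) was taken, the arrays were quantile normalised, 57 control probe sets were left out, and the dimmest were dropped by a floor at the 30th percentile of the means, which left 21729. The added 16 understates the change of dim probe sets, and 28.3% to 36.8% of probe sets per array were under 16. All 8 arrays were fitted with limma 3.58.1 in R 4.3.3 as 4 group means (4 residual degrees of freedom, estimated prior 2.62), with Benjamini-Hochberg adjustment over all probe sets tested and calls at an adjusted p under 0.05. The number of arrays limits the precision. The script was tested on simulated data. Python 3.11.15 and matplotlib 3.10.9 drew the plots and read the promoters.

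The members and gene lists were chosen with earlier results of these data known. Every member probe set is named in each comparison. Other chaperone, receptor and immediate early lists use 1 probe set a gene, the brightest. For the preparations they are given by their counts and up to 4 genes of lowest p. For the lineages they are given by their calls, with signs and medians for chaperone and immediate early lists in epithelium. Cell type marker lists are given by counts, medians or sums. For Hspa1a and Cryab the 5 most correlated genes are named, and Hsp90aa1 had no probe set of its own for this. Groups follow the sample titles. Replicate numbers did not pair samples, since deviations of same-numbered arrays correlated at -0.02 to 0.03. Alternatives were other normalisations, pseudocount 1, no filter, a trended and robust prior, array weights, a replicate block, subsets of arrays and leaving out each array.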

Additional observations from a re-analysis of the deposited data

How the results depend on the processing

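The preparation calls were stable in number, with 10 of 11 members called and 8 to 10 over the alternatives (9 with the replicate number as a block, 8 to 10 with 1 array left out), and Hspa1a, both Dnajb1 probe sets, Hspb1, Cryab, Hsph1 on 1385620_at and Hsp90ab1 on 1375335_at were called in all of them. All probe sets called between preparations numbered 8995, 5946 in the vinclozolin lineage alone and 6788 to 8131 with 1 array left out. The median over all probe sets was -0.06 as fitted, 0.04 on the deposited scale and -0.18 with median centring, and calls higher and lower numbered 4021 and 4974, 5056 and 4350, and 3198 and 7437 (44.7%, 53.8% and 30.1% higher).

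Member calls between the lineages were 0 in whole prostate, in epithelium and for the interaction, and 1 in each with the trended and robust prior, while leaving out 1 array gave 0 in each. All probe sets called in whole prostate numbered 379, against 235 with pseudocount 1, 200 with no filter, 1814 with that prior, 871 with array weights, 177 with the replicate block, 65 on its own arrays alone and 26 to 220 with 1 array left out (26 without control replicate 2). In epithelium they numbered 2, against 1 with median centring, 205 with that prior and 0 with pseudocount 1, no filter, array weights, the replicate block, its own arrays alone or any array left out. For the interaction they numbered 63, against 40 with pseudocount 1, 32 with no filter, 540 with that prior, 26 with the replicate block and 5 to 18 with 1 array left out. The smaller counts follow in part from fewer arrays or more probe sets in the adjustment, and otherwise the cause was not tested.

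Signs turned in values that were not called. In whole prostate, Dnajb1 on 1383302_at (0.02) was -0.00997 on the deposited scale, -0.0648 with median centring and -0.0890 to 0.127 with 1 array left out, and Hspb1 (-0.04) was -0.142 to 0.0563. In epithelium, Hspa1a (0.10) was -0.0166 with median centring, Hsph1 on 1385620_at (-0.10) was -0.235 to 0.0421 and Hspd1 (-0.18) was -0.358 to 0.00435 with 1 array left out. For the interaction, Dnajb1 on 1383302_at was -0.179 to 0.0368, Hspd1 was -0.223 to 0.139, and Hspe1 (0.03) was -0.0481 on the deposited scale, -0.0236 with median centring and -0.0638 to 0.118 with 1 array left out. Between the preparations, Hspd1 (0.07) was -0.122 with median centring and -0.0256 to 0.156 with 1 array left out. Cryab in whole prostate is limited by its signal over the added 16 units.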
